A study of Saccharomyces cerevisiae with 73 samples.

Results

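The plasma membrane proton pump and the Hsp30 family comprise 5 genes of Saccharomyces cerevisiae: PMA1 (YGL008C), PMA2 (YPL036W), HSP30 (YCR021C), MRH1 (YDR033W) and YRO2 (YBR054W). They were taken by gene symbol, each has 1 probe, and they are 5 of the 5538 genes named on the arrays. Strain KCN118 (S288C background, ade2, MATalpha) was grown at 28 °C in synthetic complete medium with 2% dextrose and 75 µM inositol to an OD600 of 0.6, filtered, washed, and moved to new medium for 15, 30, 60, 120 or 240 min. There were 13 shifted cultures, 1 for each medium, measured on 73 two-colour cDNA arrays at 65 culture and time points, 8 of which had a repeat array that was averaged in. For SEtOH+aa the study's design text gives 60 and 240 min as the repeated times and the sample titles give 60 and 120 min, which were followed here, so its 120 min point may hold arrays of different times. On every array the Cy5 channel held poly(A) RNA of the shifted cells and the Cy3 channel that of the cells at t = 0, with no dye swap.

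In the medium names SD, SEtOH and Sgal stand for 2% dextrose, ethanol or galactose, and +aa and +ino for all amino acids and inositol. The 5 dextrose media were SD, SD+ino, SD+aa, SD+aa:LIVWHM+ino and SD+aa:ARNCQGKPSDEFTY+ino, the last 2 with part of the amino acids, read here as those named by their letters in the titles. For these 2 media the study's design text differs from the titles, over amino acids D, E and Y and over inositol. Their content is thus uncertain, and SD+aa:LIVWHM+ino may hold D, E and Y too. The 4 ethanol and 4 galactose media held no or all amino acids, each with or without inositol. No culture was returned to the complete growth medium, and SD+aa, which lacked only inositol, came nearest to a mock shift. The S288C line is known to carry a defective gal2, the galactose permease gene, and the labels do not say whether KCN118 does. In the galactose cultures at 240 min the log2 ratio to t = 0 of the galactose utilisation genes was 2.07 to 2.90 for GAL7, 1.49 to 2.42 for GAL1 and -0.61 to 0.33 for GAL10.

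Pma1 is the essential P-type ATPase that pumps protons out of the cell; it sets the gradient that drives most nutrient uptake, is one of the most abundant proteins of the plasma membrane, and is activated when cells receive glucose. Pma2 is a closely similar isoform that is normally little expressed. Hsp30 is a small membrane protein of the stress response that has been reported to restrain the ATPase activity of Pma1. Mrh1 and Yro2 are membrane proteins related in sequence to Hsp30, with roles that are not well defined, and YRO2 is known as a target of Haa1, the activator of the response to acetic acid.

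Values are log2 ratios to t = 0, converted from deposited values taken to be log10 of the Cy5 (shifted) to Cy3 (t = 0) ratio, and an SD is over cultures of a group. Neither the log base nor the direction is stated with the table: in base 2 every value would be 3.32 times smaller, and in the opposite direction every sign would turn. The values end at 100-fold, a log2 ratio of 6.64, so a value there is a bound. The 5 genes were chosen by these same values, the ratios to t = 0 in all 13 media and 5 times, so their differences are described and carry no test. In whole cultures a lower ratio in fewer cells and less RNA in each cell cannot be told apart, and the ratios are relative to the rest of the transcripts. The repeat arrays of SD+ino at 240 min and Sgal+ino at 60 min were nearly identical to their partners (SD of the log2 differences over all genes 0.00559 and 0.0139), and both are labelled as technical replicate 1, so they may not be separate measurements. Between the repeat arrays of the other 6 points the median absolute difference was 0.069 for PMA1, 0.19 for YRO2, 0.22 for MRH1, 0.22 for PMA2 and 0.31 for HSP30. Over all genes the SD between the repeats was 0.681 for SEtOH+aa at 120 min, the highest of the 6, where PMA1 was at -2.60 and -2.65 and MRH1 at -1.75 and -2.22 on the 2 arrays.

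**Figure D1:**
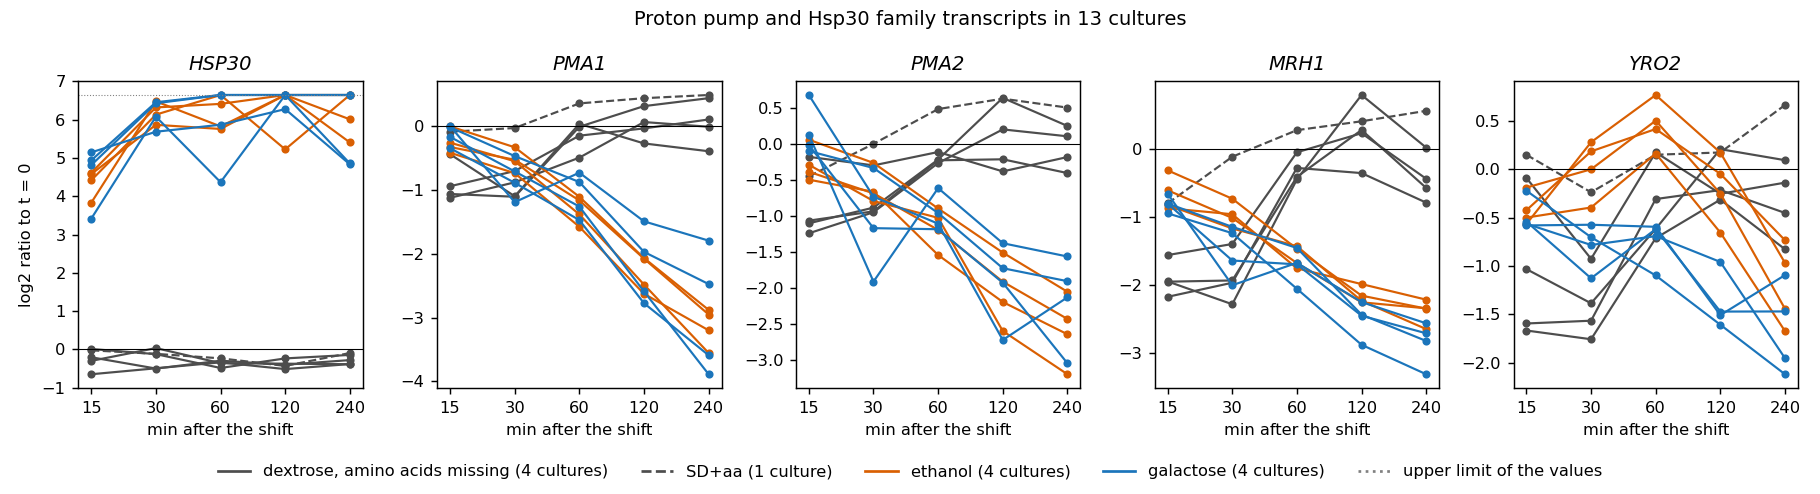
Log2 ratio to t = 0 (vertical axis, scaled per gene) against minutes after the shift (horizontal axis, evenly spaced times) for the 5 genes. Each line is 1 culture, coloured by carbon source, with SD+aa dashed and the upper limit of the values dotted; HSP30 lies between -0.65 and 0.03 in dextrose and between 3.41 and 6.64 in ethanol and galactose, while PMA1 reaches -3.56 in ethanol and -3.89 in galactose.

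The pump gene PMA1 was progressively lower in the media without dextrose and close to its starting level in dextrose by the end of the course. In ethanol its mean went from -0.25 ± 0.18 at 15 min through -0.54 ± 0.17, -1.31 ± 0.21 and -2.31 ± 0.28 to -3.15 ± 0.30 at 240 min (SD, n = 4 cultures), which is 8.86-fold below t = 0. In galactose the means were -0.14 ± 0.16, -0.82 ± 0.30, -1.09 ± 0.34, -2.21 ± 0.59 and -2.94 ± 0.97 (SD, n = 4). At 240 min PMA1 ranked 9 from the bottom of 5538 genes by its mean in ethanol and 14 from the bottom of 5534 in galactose.

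At 240 min PMA1 stood at -2.95 in SEtOH, -3.20 in SEtOH+aa, -3.56 in SEtOH+aa+ino and -2.88 in SEtOH+ino. The same time gave -2.48 in Sgal, -3.89 in Sgal+aa, -3.59 in Sgal+aa+ino and -1.80 in Sgal+ino. In dextrose it gave 0.43 in SD, 0.48 in SD+aa, 0.10 in SD+aa:ARNCQGKPSDEFTY+ino, -0.40 in SD+aa:LIVWHM+ino and -0.01 in SD+ino. Every ethanol and galactose culture was therefore below every dextrose culture, and Sgal+ino was the nearest to them. The same held for 35.9% of all genes in ethanol and 30.3% in galactose.

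The order of the media was different in the first samples. At 15 min PMA1 was -1.07 in SD, -1.13 in SD+ino, -0.94 in SD+aa:ARNCQGKPSDEFTY+ino and -0.44 in SD+aa:LIVWHM+ino, a mean of -0.89 ± 0.31 (SD, n = 4 dextrose cultures lacking amino acids), against -0.09 in SD+aa. At 30 min these 4 cultures were at -1.11, -0.88, -0.71 and -1.10, a mean of -0.95 ± 0.19, against -0.03 in SD+aa. In ethanol the 15 min values were -0.33 in SEtOH, -0.42 in SEtOH+aa, -0.26 in SEtOH+aa+ino and -0.01 in SEtOH+ino. At 15 min the 4 dextrose cultures that lacked amino acids were thus below all 4 ethanol cultures, as for 24.5% of all genes and by a margin of -0.44 against -0.42 at the nearest, whereas from 60 min on all ethanol cultures were below all dextrose cultures, as for 21.2% of all genes at 60 min and 33.8% at 120 min.

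Within cultures, PMA1 at 240 min minus 15 min was 0.86 ± 0.56 in dextrose (SD, n = 5, with 0.05 as the lowest), -2.89 ± 0.29 in ethanol and -2.80 ± 0.85 in galactose (SD, n = 4 each). The sign was thus positive in all 5 dextrose cultures and negative in all 8 others, as for 18.6% of all genes. Between media matched for amino acids and inositol, the mean over the 5 times was lower in ethanol than in dextrose by 1.94, 1.12 and 0.79 for the pairs with SD+aa, SD and SD+ino, and the galactose differences ran from -1.96 to -0.55. Both comparisons use the same dextrose cultures. Ethanol and galactose differed for PMA1 by -0.08 ± 0.20 (SD, 4 matched pairs), with 2 pairs on each side of 0, and by -0.29 under quantile normalization, which forces every array to the same spread.

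PMA2 had nearly the same values as PMA1 at most points. The pair is known to be closely similar in sequence, which was not compared here, and similar genes can share signal on cDNA probes, so how much of the PMA2 signal came from PMA1 cannot be told apart, and its values are uncertain. Over the 65 points the correlation between the 2 genes was 0.947 (Pearson's r; the points share cultures and t = 0 samples), and PMA2 was within 0.5 of PMA1 at 53 of them. In ethanol PMA2 went from -0.28 ± 0.24 at 15 min to -2.58 ± 0.48 at 240 min, and in galactose from 0.17 ± 0.35 to -2.16 ± 0.63 (SD, n = 4 each).

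The 240 min values of PMA2 were -2.43 in SEtOH, -2.64 in SEtOH+aa, -3.19 in SEtOH+aa+ino and -2.05 in SEtOH+ino. In galactose they were -1.91 in Sgal, -3.04 in Sgal+aa, -2.13 in Sgal+aa+ino and -1.56 in Sgal+ino. In dextrose they lay between -0.41 and 0.50, above the other groups without overlap, as for 35.9% of all genes against ethanol and 30.3% against galactose. At this time PMA2 was above PMA1 in all 8 cultures without dextrose, by a median of 0.54 in ethanol and 0.71 in galactose.

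At 15 min PMA2 was at 0.67 in Sgal+aa+ino, 0.12 in Sgal+ino, -0.02 in Sgal+aa and -0.10 in Sgal. All 4 were above the highest dextrose culture, which was at -0.18, as for 14.5% of all genes, while the PMA1 values of galactose and dextrose overlapped. The largest gap between the genes was in Sgal+aa+ino at 240 min, where PMA2 was 1.46 above PMA1. Under quantile normalization PMA2 at 240 minus 15 min in ethanol was -1.001 in place of -2.30.

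**Figure D2:**
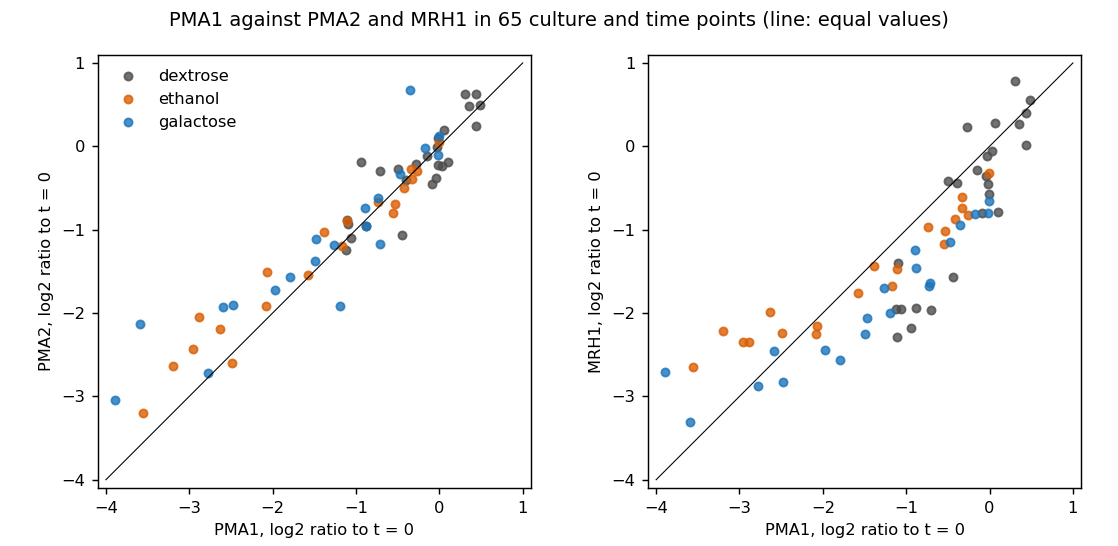
PMA2 (left) and MRH1 (right) on the vertical axis against PMA1 on the horizontal axis, as log2 ratios to t = 0; each point is 1 of 65 culture and time points, coloured by carbon source, and the line marks equal values. PMA2 follows the line (r = 0.947) and sits above it at the lowest PMA1 values, while MRH1 (r = 0.874) lies below it for most points.

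HSP30, the reported restrainer of the pump, separated the media with and without dextrose from the first sample on. At 15 min it was already 20.5-fold above t = 0 in ethanol and 23.9-fold in galactose, as log2 means of 4.36 ± 0.36 and 4.58 ± 0.79 (SD, n = 4 each), and at -0.23 ± 0.27 in dextrose (SD, n = 5). The SD over all genes was still small then, with a median of 0.396 over the ethanol arrays and 0.502 over the galactose arrays at 15 min. By its mean HSP30 ranked 4 from the top of 5538 genes in ethanol at that time and 3 from the top in galactose.

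The 15 min values were 4.58 in SEtOH, 4.62 in SEtOH+aa, 4.42 in SEtOH+aa+ino and 3.83 in SEtOH+ino. In galactose they were 4.94 in Sgal, 5.15 in Sgal+aa, 4.81 in Sgal+aa+ino and 3.41 in Sgal+ino. The lowest culture of each of these carbon sources was the one with inositol and without amino acids. In dextrose they were 0.01 in SD, -0.02 in SD+aa, -0.65 in SD+aa:ARNCQGKPSDEFTY+ino, -0.30 in SD+aa:LIVWHM+ino and -0.21 in SD+ino, and the 30 min point of SD+aa:ARNCQGKPSDEFTY+ino and the 120 min point of SD+aa:LIVWHM+ino had no HSP30 value.

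At 30 min HSP30 was 5.86 in SEtOH, 6.32 in SEtOH+aa, 6.13 in SEtOH+aa+ino, 6.48 in SEtOH+ino, and in galactose 6.45 in Sgal, 5.68 in Sgal+aa, 6.43 in Sgal+aa+ino and 6.08 in Sgal+ino. The upper limit was met by 15 of its 71 arrays, all of them in ethanol or galactose from 30 min on, while SEtOH+aa+ino was at 5.22 at 120 min and Sgal+ino at 4.37 at 60 min. At 240 min it was at the limit in SEtOH, SEtOH+aa+ino, Sgal and Sgal+aa+ino, and at 6.01 in SEtOH+aa, 5.40 in SEtOH+ino, 4.83 in Sgal+aa and 4.86 in Sgal+ino. The highest dextrose value at any time was 0.03, against a lowest of 3.41 in the other media; at 15 min 15.1% of all genes were higher in every ethanol culture than in every dextrose culture, and 14.9% at 60 min.

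Between matched media HSP30 was higher in ethanol than in dextrose by at least 6.08 ± 0.10 (SD, 3 pairs) and higher in galactose by at least 5.87 ± 0.54, as log2 means over time; both are lower bounds and their SDs are narrowed by the limit. With the values at the limit left out, which drops the highest points, the ethanol difference was 5.74. Ethanol and galactose differed by 0.05 ± 0.52 (SD, 4 pairs), from -0.42 to 0.56, with 2 pairs on each side of 0. At 5 of the 20 matched points both were at the limit and the difference was 0 by construction, and at 8 at least 1 was. The 30 min value of SEtOH+ino, 6.48, also averages in 1 array at the limit. The small difference thus does not show that the carbon sources had like HSP30 levels. The further gain between 15 and 240 min, 1.81 ± 0.40 in ethanol and 1.17 ± 1.00 in galactose (SD, n = 4 each), is bounded by the limit, and under quantile normalization it turned to -0.79 and -1.29.

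MRH1, a relative of HSP30, was progressively lower without dextrose, as PMA1 was, where HSP30 was higher. In ethanol its mean was -0.66 ± 0.25, -0.97 ± 0.18, -1.59 ± 0.16, -2.16 ± 0.12 and -2.39 ± 0.18 at the 5 times, and in galactose -0.81 ± 0.12, -1.51 ± 0.39, -1.72 ± 0.25, -2.51 ± 0.27 and -2.85 ± 0.32 (SD, n = 4 each). It was 5.24-fold below t = 0 in ethanol at 240 min and 7.23-fold in galactose. Its correlation with PMA1 over the 65 points was 0.874, and with HSP30 -0.591 over 63 points. Of 5216 genes ranked from the most like MRH1, PMA1 was 26 and HSP30 4241.

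At 240 min MRH1 stood at -2.34 in SEtOH, -2.22 in SEtOH+aa, -2.65 in SEtOH+aa+ino and -2.35 in SEtOH+ino. In galactose it stood at -2.82 in Sgal, -2.71 in Sgal+aa, -3.31 in Sgal+aa+ino and -2.57 in Sgal+ino. In dextrose it stood at 0.02 in SD, 0.56 in SD+aa, -0.79 in SD+aa:ARNCQGKPSDEFTY+ino, -0.44 in SD+aa:LIVWHM+ino and -0.58 in SD+ino. The dextrose cultures were all above the others at this time, with SD+aa the highest. Such a gap was seen for 35.9% of all genes against ethanol and 30.3% against galactose.

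In dextrose without a full set of amino acids MRH1 was low early and near its starting level later. At 15 min it was at -1.95 in SD, -1.95 in SD+ino, -2.18 in SD+aa:ARNCQGKPSDEFTY+ino and -1.56 in SD+aa:LIVWHM+ino, a mean of -1.91 ± 0.25, and at 30 min the mean was -1.90 ± 0.37 (SD, n = 4). These 4 cultures were at -0.30 ± 0.18 at 60 min and 0.23 ± 0.47 at 120 min. SD+aa was at -0.80, -0.12, 0.27, 0.40 and 0.56 at the 5 times. At 15 min the 4 dextrose cultures lacking amino acids were below all 8 ethanol and galactose cultures, whose lowest was -0.95, as for 21.6% of all genes.

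MRH1 at 240 minus 15 min was 1.44 ± 0.31 in dextrose (SD, n = 5), -1.73 ± 0.29 in ethanol and -2.05 ± 0.22 in galactose (SD, n = 4 each), with 1 sign in every culture of a carbon source. Under quantile normalization these were 0.93 ± 2.26, 0.06 ± 0.60 and -0.68 ± 0.84 (SD). The ethanol direction was thus lost, and the dextrose and galactose means were smaller than their SDs. On the deposited scale the median SD over all genes was 0.396 at 15 min and 1.35 at 240 min in ethanol, 0.502 and 1.48 in galactose, and 1.27 and 0.446 in dextrose; the part of this spread in the result was not tested. MRH1 was also slightly higher in ethanol than in galactose, by 0.33 ± 0.13 over the 4 matched pairs, from 0.15 to 0.43.

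YRO2 had the smallest range of the 5 genes, from -2.12 to 0.77, and had the largest mean difference between ethanol and galactose, 0.75 ± 0.14 over time (SD, 4 pairs). In ethanol its mean was -0.42 ± 0.16 at 15 min, 0.02 ± 0.30 at 30 min, 0.46 ± 0.25 at 60 min, -0.19 ± 0.35 at 120 min and -1.20 ± 0.43 at 240 min (SD, n = 4). In galactose it was -0.48 ± 0.17, -0.80 ± 0.24, -0.75 ± 0.24, -1.39 ± 0.29 and -1.66 ± 0.47 (SD, n = 4). The 2 groups overlapped at 15 min and did not from 30 min to 120 min. Ethanol was the higher, as for 7.44%, 8.05% and 10.0% of all genes at 30, 60 and 120 min.

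At 60 min YRO2 was at 0.77 in SEtOH, 0.42 in SEtOH+aa, 0.16 in SEtOH+aa+ino and 0.50 in SEtOH+ino. The galactose values were -0.59 in Sgal, -0.69 in Sgal+aa, -1.10 in Sgal+aa+ino and -0.62 in Sgal+ino. All 4 ethanol cultures were thus above all 4 galactose cultures, as for 8.05% of all genes. The matched differences, ethanol minus galactose, averaged 1.21 ± 0.12 at 60 min (SD, 4 pairs, from 1.11 to 1.36), 1.19 ± 0.35 at 120 min and 0.81 ± 0.36 at 30 min, against 0.06 ± 0.26 at 15 min.

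The 240 min values were -0.97 in SEtOH, -0.73 in SEtOH+aa, -1.67 in SEtOH+aa+ino and -1.44 in SEtOH+ino, and -1.09 in Sgal, -1.95 in Sgal+aa, -2.12 in Sgal+aa+ino and -1.47 in Sgal+ino. The ethanol and galactose groups overlapped again by then. The matched differences were above 0 in all 4 pairs, at 0.46 ± 0.54 (SD, from 0.03 to 1.22), and the share of all genes for which this held was not counted. For SEtOH+ino (0.03) and SEtOH (0.13) they were smaller than the median difference between YRO2 repeat arrays, 0.19. In dextrose YRO2 at 15 min was -1.03 in SD, -1.67 in SD+ino, -1.59 in SD+aa:ARNCQGKPSDEFTY+ino, -0.09 in SD+aa:LIVWHM+ino and 0.15 in SD+aa. At 30 min the 4 cultures lacking amino acids were at -1.41 ± 0.36 (SD, n = 4) and SD+aa at -0.24. At 240 minus 15 min YRO2 was at -0.78 ± 0.50 in ethanol and -1.18 ± 0.60 in galactose (SD, n = 4 each). Under quantile normalization it was at 0.32 ± 0.51 and -0.00 ± 0.60, so the sign of the ethanol mean turned, with a mean smaller than its SD.

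**Figure D3:**
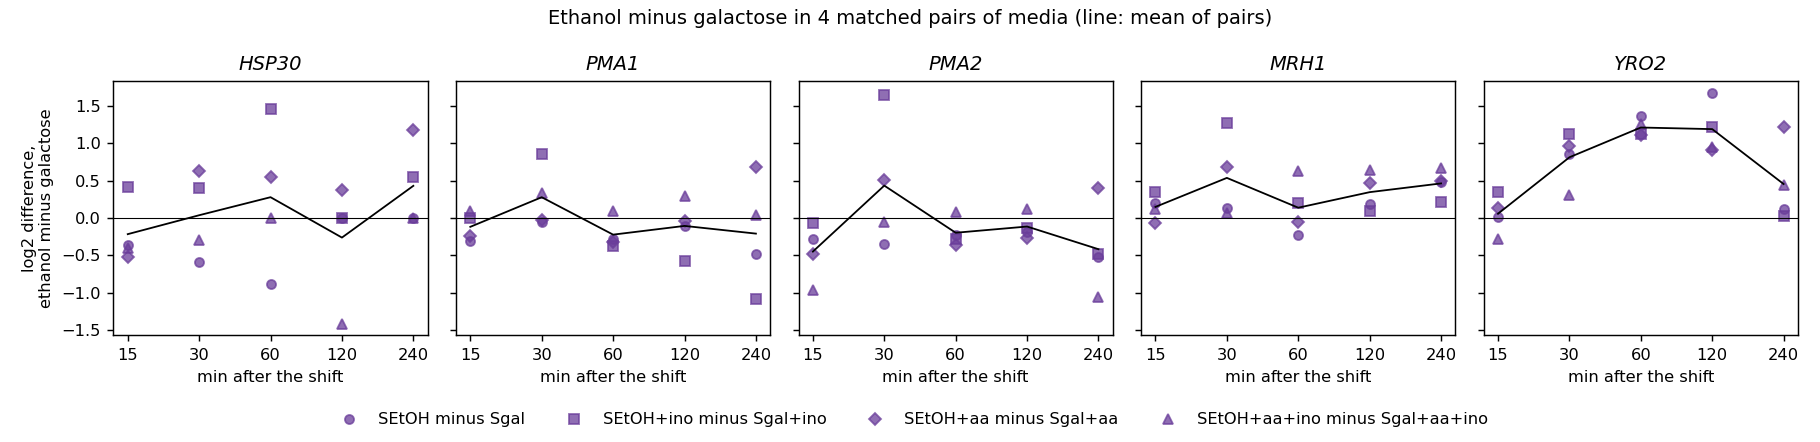
Difference in log2 ratio, ethanol minus galactose (vertical axis), against minutes after the shift (horizontal axis) for the 5 genes; each symbol is 1 of 4 pairs of media matched for amino acids and inositol, and the line is their mean. The YRO2 differences at 60 min lie between 1.11 and 1.36, while those of PMA1 lie on both sides of 0.

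The ethanol and dextrose cultures can be set against all genes by how often the 2 groups of values did not overlap. Over culture means all ethanol cultures were below all dextrose cultures for PMA1, PMA2 and MRH1, as for 21.0% of all genes, and above them for HSP30, as for 16.4%. At 240 min the same 3 genes were lower, as were 35.9% of genes, and HSP30 was higher, as were 28.7%. For galactose against dextrose the culture means of the same 3 genes were lower, as for 19.2% of genes, HSP30 was higher, as for 16.1% (23.3% at 240 min), and YRO2 was in addition lower at 120 and 240 min, as were 27.2% and 30.3% of genes. Between ethanol and galactose the culture means of MRH1 and YRO2 were higher in ethanol without overlap, as for 10.8% of genes, and YRO2 was so at 30, 60 and 120 min, as were 7.44%, 8.05% and 10.0%. At 60 min PMA1, PMA2 and MRH1 were lower in every galactose culture than in every dextrose culture, as were 17.6% of genes, and HSP30 was higher, as were 13.7%.

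The presence of amino acids went with opposite differences in dextrose and in the other carbon sources for the pump gene. PMA1 without amino acids minus with all of them, as a mean over time, was -0.52 for SD against SD+aa. It was 0.30 for SEtOH, 0.37 for SEtOH+ino, 0.56 for Sgal and 0.77 for Sgal+ino, each against the same medium with amino acids. At 240 min the 4 differences without dextrose were 0.25, 0.68, 1.41 and 1.79, so the lowest PMA1 values of the series were in media with amino acids. The dextrose difference was -0.97 at 15 min and -1.08 at 30 min but -0.05 at 240 min, so it lay in the early samples. How many of all genes had these signs was not counted.

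MRH1 and YRO2 had the same negative difference in dextrose, -0.84 and -0.73, and PMA2 had -0.50. Outside dextrose the MRH1 differences were between -0.02 and 0.26, those of YRO2 between 0.06 and 0.34, and those of PMA2 between 0.13 and 0.65. HSP30 had a difference of -0.02 in dextrose and values from -1.16 to 0.70 elsewhere. The dextrose difference rests on 1 culture, SD+aa, and its spread between cultures is not known.

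**Figure D4:**
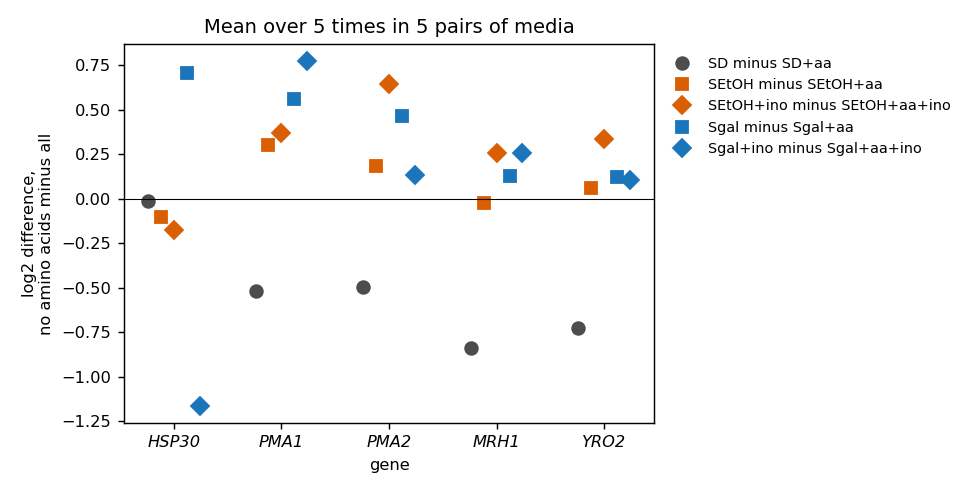
Difference in log2 ratio, no amino acids minus all, as a mean over 5 times (vertical axis) for the 5 genes (horizontal axis); each symbol is 1 of 5 pairs of media. The dextrose pair is below 0 for all 5 genes, at -0.52 for PMA1, whereas the 4 ethanol and galactose pairs of PMA1 lie between 0.30 and 0.77.

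Inositol went with small differences. For YRO2 the medium without inositol was higher by 0.31 ± 0.17 (SD, n = 5 pairs, from 0.16 to 0.51) over the 5 times. How many of all genes were higher in every pair was not counted. PMA1 differed by -0.00 ± 0.15 and MRH1 by 0.08 ± 0.15. HSP30 ranged from -0.67 to 1.19 over the pairs. Over all genes no gene passed limma's test for inositol after Benjamini-Hochberg adjustment (0.0% of 5340 genes), with or without trend and robust eBayes. At an unadjusted p under 0.05 95 genes passed, or 139 with trend and robust eBayes, both below the share of 0.05 that chance alone would give. The same test called 25.7% of genes for amino acids in dextrose, where SD+aa is the only culture of its arm and is assumed to vary like the other media. It called 3.76% between ethanol and galactose, 201 genes, which became 852 without SD+aa and 2 without either SEtOH+ino or SEtOH+aa+ino.

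The genes whose values were most like each of the 5 were ranked by Pearson's r over the 65 points, with no test, since the points share cultures and t = 0 samples. For HSP30 they were BTN2, a factor that gathers misfolded proteins (r = 0.979), PIN3 (0.968) and FES1, an exchange factor of Hsp70 (0.957), over 63 points. For PMA1 they were VRG4, the Golgi transporter of GDP-mannose (0.947), PMA2 (0.947) and PMT4, a protein O-mannosyltransferase (0.938).

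For PMA2 they were PMA1, VRG4 (0.934) and TRM44, a tRNA methyltransferase (0.914). MRH1 was most like ELO2, a fatty acid elongase (0.910), RNR1, a subunit of ribonucleotide reductase (0.905), and RAS1, a GTPase (0.903). YRO2 had less close matches, namely LCB3, a phosphatase of sphingoid bases (0.747), GAS3 (0.708) and YDJ1, an Hsp40 chaperone (0.706). Between the 5 genes, MRH1 and YRO2 correlated at 0.667, PMA1 and YRO2 at 0.552, HSP30 and PMA1 at -0.603 and HSP30 and YRO2 at -0.132. Of 5216 genes ranked from the most like PMA1, YRO2 was 1404 and HSP30 4226. Many genes thus had a lower correlation with PMA1 than HSP30 did. In the ranking for YRO2, MRH1 was 25 and HSP30 3068.

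Genes that act on the pump were tested with limma on culture means over time, in 11 cultures with terms for amino acids and inositol. In ethanol against dextrose 31.1% of 5340 genes passed at an adjusted p under 0.05 (13.1% higher and 18.0% lower), and of 11 pump regulators and biogenesis factors 1 rose and 2 fell, with a list median of -0.16 against -0.07 for all genes. The count over all genes was 1662, and it was 979 without SEtOH and 1093 without SEtOH+aa. HRK1, a kinase that activates Pma1, was higher by 1.55 ± 0.15 (SE; limma, adjusted p = 0.000199), and PMP1, a small proteolipid bound to the pump, was lower by 0.80 on the log2 scale (difference -0.80, SE 0.14; limma, adjusted p = 0.00424). The third call, SOP4, an endoplasmic reticulum protein of Pma1 export, was lost without any one of SD+aa, SD+ino, SEtOH, SEtOH+aa, SEtOH+aa+ino or SEtOH+ino. It was also lost with each array centred on its median (difference -0.56; limma, adjusted p = 0.0513).

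In galactose against dextrose, where 41.4% of genes passed (18.1% higher and 23.4% lower), 1 of the 11 rose and 3 fell, and without SD+aa 2 rose. The count over all genes was 2212, and 1432 without Sgal. SOP4 had a difference of -0.98 (SE 0.19; limma, adjusted p = 0.00341), PMP1 of -0.78 and HRK1 of 0.77. HRK1 in galactose missed the threshold under quantile normalization (adjusted p = 0.0519, difference 0.45).

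Between 15 and 240 min EXP1 and AST1, factors of Pma1 export and targeting, had the same signs as PMA1 in each carbon source. At 240 minus 15 min in ethanol, where 64.8% of 4638 genes passed limma's test (27.7% higher and 37.1% lower), 2 of the 11 rose and 5 fell. EXP1, which acts in the exit of Pma1 from the endoplasmic reticulum, had a difference of -2.06 ± 0.25 (SE; limma, adjusted p = 1.61e-05), and AST1, which acts in the delivery of Pma1 to the plasma membrane, of -1.47 ± 0.22 (adjusted p = 8.06e-05). In galactose, where 68.0% of genes passed (29.0% higher and 39.0% lower), 2 rose and 8 fell, among them EXP1 (-1.48) and AST1 (-1.28), and 6 fell without Sgal, 5 without Sgal+aa+ino, while 1 rose without either Sgal or Sgal+aa. In dextrose, where 50.2% passed (25.3% higher and 24.9% lower), 3 of the 11 rose and 2 fell, and EXP1 had 1.22 and AST1 0.89. Of all genes 18.6% were above 0 in every dextrose culture and below 0 in every other, a stricter pattern than these mean signs.

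In SD the values of EXP1 at the 5 times were -2.01, -2.32, -1.41, -0.60 and -0.38, and in SEtOH -0.20, -0.39, -0.72, -1.39 and -2.35. EXP1 was thus low early in SD and late in SEtOH, the same order that PMA1 and MRH1 had. The kinase gene PTK2, another activator of Pma1, had the opposite signs, 1.36 in ethanol and -1.17 in dextrose. Under quantile normalization 2 of the 11 fell in ethanol and 1 in galactose, and the calls of AST1 in all 3 carbon sources, EXP1 in galactose and PTK2 in ethanol were lost.

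The second proton pump of the cell is the vacuolar ATPase. Of its 17 subunits and assembly factors 4 fell in ethanol against dextrose, where 18.0% of all genes were called lower. VPH1, the vacuolar form of the membrane subunit, was at -0.45 ± 0.09 (SE, limma, adjusted p = 0.00728). Without SD+ino, SEtOH or SEtOH+ino 2 fell. At 240 minus 15 min 10 of 17 fell in ethanol, where 37.1% of all genes were called lower, and under quantile normalization 5 did. VMA5 was at -1.10 ± 0.16 (limma, adjusted p = 5.6e-05). In galactose, where 39.0% of all genes were called lower and 29.0% higher, 10 fell and 1, VMA8, rose. The VMA8 difference was 1.73, with an adjusted p of 0.0489 by limma. Without Sgal+ino the VMA8 difference was 0.21, and the call was also lost without any one of the dextrose or ethanol cultures, under quantile normalization (adjusted p = 0.0585) and with trend and robust eBayes (adjusted p = 0.0573).

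Among 13 other P-type ATPases 2 rose in ethanol against dextrose, where 13.1% of all genes were called higher, and 1 rose without SEtOH or SEtOH+aa. PMC1, the vacuolar calcium pump, was at 1.36 ± 0.14 (SE; limma, adjusted p = 0.000212). The sodium pump genes ENA1, ENA2 and ENA5, tandem copies that can share signal, rose by 2.10, 1.68 and 1.62 between 15 and 240 min in ethanol (limma, highest adjusted p = 0.000748), opposite in sign to PMA1. Of 14 genes of monovalent cation transport 3 rose and 1, QDR2, fell in ethanol against dextrose, where 13.1% of all genes were called higher and 18.0% lower. The call of QDR2 was lost without SD, SD+ino, SEtOH or SEtOH+ino, 2 rose without SD+aa, SEtOH or SEtOH+ino, and 3 fell without SD+aa or Sgal+aa+ino and 2 without Sgal+aa. Under quantile normalization 5 fell, and with trend and robust eBayes 2. HAL5, a kinase that stabilises potassium transporters, was at 1.69 ± 0.14 (limma, adjusted p = 7.53e-05).

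For the acid response, in which YRO2 is a known target, 3 of 12 genes rose and 2 fell in ethanol against dextrose. Of all genes 13.1% were called higher and 18.0% lower. In the list 1 gene fell without SD+ino, SEtOH, SEtOH+aa+ino or SEtOH+ino, or with trend and robust eBayes. SPI1, a cell wall protein of weak acid resistance, was at 3.58 ± 0.23 (SE; limma, adjusted p = 2.15e-05), and ADY2, an acetate transporter, at 2.25 ± 0.20 (adjusted p = 0.000102). The activator gene HAA1 had 0.73 ± 0.19 in ethanol (limma, adjusted p = 0.0185), a call lost without SD+ino or SEtOH. At 240 minus 15 min in ethanol it had 1.42 ± 0.18 (limma, adjusted p = 2.36e-05), a call lost under quantile normalization (adjusted p = 0.81). A link between HAA1 and YRO2 was not tested.

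Of 16 genes of plasma membrane domains 4 rose and 4 fell in ethanol against dextrose, where 13.1% of all genes were called higher and 18.0% lower. YNL194C, of the Sur7 family of eisosome proteins, was at 3.98 ± 0.35 (SE, limma, adjusted p = 9.98e-05) and PUN1 of the same compartment at 1.58. TOS7 was at -1.64 ± 0.11 (adjusted p = 2.5e-05). Of 9 transcription factor genes 3 rose and 2 fell, against the same shares of all genes, and 1 rose and 1 fell without SEtOH. TYE7, an activator of glycolytic genes, was at 1.91 ± 0.21 (limma, adjusted p = 0.000337). GCR1, which acts with Rap1 on glycolytic genes, was at -0.60, a call lost without SEtOH.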

How the data were processed

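The deposited table held 1 column for each array, read here as log10 ratios of shifted (Cy5) over t = 0 cells (Cy3), with the dyes per the labels. The array software and normalization made by the authors are not given in the sources used here. The log10 values ended at exactly 2 on either side and were multiplied by 3.32 to log2, with no further normalization. All value columns were used (0 were not). Of 6256 probes 5568 had 1 gene symbol, for 5538 genes, and probes of a gene and repeat arrays were averaged. Arrays held 4954 to 6254 values, with medians of -0.17 to 0.06, and their number limits the precision.

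The 5 genes and 7 lists of related genes were chosen with earlier results of these data known. The lists were pump regulators and biogenesis, vacuolar proton pump, other P-type ATPases, monovalent cation transport, weak acid response, plasma membrane domains and transcription factors. Named genes were the 5 genes, the 3 most alike to each, and up to 3 called genes of a list with the largest difference. Lists were tested with limma 3.58.1 (R 4.3.3; lmFit and eBayes, two-sided, Benjamini-Hochberg over all genes, threshold 0.05) on culture means with at least 3 times in 11 cultures, or on 240 minus 15 min in 13. Each medium is 1 culture, so p-values measure the spread between cultures of different media, and the repeat arrays were not replicates. The scripts were tested on simulated data. Tried alternatives were centring, quantile normalization, the first array of a repeat, values at the limits as missing, genes on every array, trend and robust eBayes, 4 amino acid levels, and leaving out each culture.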

Additional observations from a re-analysis of the deposited data

Results flagged for a closer look

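Among 105 groups of 4 or 5 cultures, 7 had 1 culture far from the others, where chance gives about 1 in 20 (5%). In dextrose the SD+aa culture stood apart for PMA1 as a mean over time, at 0.23 against -0.49 to -0.29 in the others, and for PMA2 at 60 min, at 0.48 against -0.27 to -0.12. PMA2 at 240 minus 15 min was at -2.90 in SEtOH+aa+ino against -2.14 to -2.04 in the other ethanol cultures. HSP30 at 240 minus 15 min was at 0.27 in SD+aa:ARNCQGKPSDEFTY+ino against -0.16 to -0.07 in the other dextrose cultures. HSP30 at 120 min was at 5.22 in SEtOH+aa+ino and at 6.28 in Sgal+aa, where every other culture of the same carbon source was at the upper limit of 6.64; the limit leaves the others no spread, so any lower value would stand apart. YRO2 at 15 min was at -0.22 in Sgal+aa+ino against -0.58 to -0.54 in the other galactose cultures.

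For 2 genes every dextrose culture had a higher value at 240 than at 15 min and every ethanol and galactose culture a lower one, as for 18.6% of all genes. For PMA1 dextrose minus ethanol differed by 3.75 and dextrose minus galactose by 3.66. For MRH1 these were 3.17 and 3.49. These differences were not tested.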

How the results depend on the processing

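No paired analysis was possible because replicate numbers in the labels mark repeat arrays of 1 culture; matched media were set side by side with no test. Of 120 recomputed differences of the 5 genes 102 moved by less than the SD between cultures, 14 moved further and 4 reversed. Leaving out 1 culture cannot move a mean of these groups by more than its SD, so it bears little on them; it took HSP30 for ethanol minus galactose from -0.12 to 0.21. Quantile normalization gave most of these, at 240 minus 15 min: HSP30 -0.79 in ethanol and -1.29 in galactose, MRH1 0.061 in ethanol and YRO2 0.32 in ethanol reversed, and HSP30 was -0.36 in dextrose, PMA1 -2.12 in ethanol and -1.89 in galactose, PMA2 -1.001 and -1.59, MRH1 -0.68 in galactose and 0.93 in dextrose, and YRO2 -0.0027 in galactose. For means over time it gave PMA1 -0.29 for ethanol minus galactose, MRH1 -1.56 for ethanol minus dextrose and -1.87 for galactose minus dextrose, and HSP30 5.34 for ethanol minus dextrose, which was 6.19 with centred arrays and 5.74 with values at the limits missing. By construction this normalization removes differences in spread between arrays. Among list genes it reversed SPI1 (-0.997 in ethanol, -1.23 in galactose), KHA1 (-0.10 in ethanol), QDR2 (0.27 in dextrose), PUN1 (-0.33), SLM1 (-0.092) and SOP4 (0.035) in galactose at 240 minus 15 min, and EXP1 without amino acids in dextrose (0.19).

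The number of genes called at 240 minus 15 min, 2328 in dextrose, 3004 in ethanol and 3153 in galactose, was 1526, 1683 and 1390 under quantile normalization and 1473, 1931 and 2041 over the 2961 genes with a value on every array, where fewer genes were tested. Over those genes 903 were called for ethanol minus dextrose, 1217 for galactose minus dextrose, 107 for ethanol minus galactose and 886 for amino acids in dextrose. For ethanol minus galactose, 201 in all, quantile normalization gave 127 and trend and robust eBayes 396. With 1 culture left out the counts were 979 to 2003 for ethanol minus dextrose (lowest without SEtOH; 1093 without SEtOH+aa), 1432 to 2646 for galactose minus dextrose (lowest without Sgal) and 2 to 852 for ethanol minus galactose (852 without SD+aa, 2 without either SEtOH+ino or SEtOH+aa+ino); the cause was not tested. Leaving out SD+aa removes the amino acid comparison in dextrose, and the partial amino acid cultures are not in the 11-culture fits. Values below background could not be marked, since the table holds no intensities.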
